A study of Homo sapiens with 24 samples.

Results

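The 7 metastasis-derived lines of RWPE-1 in this series were compared by the site they came from. The 3 lines grown from bone (Bone4, Bone5 and Bone6) were set against the 2 lines grown from lymph node (LN1A and LN1B) and the 2 lines grown from spine (Spine and Spine2). Membership was taken from the treatment label and the title of each library, and the 7 lines are 7 of the 24 libraries of the whole series and 7 of its 12 RWPE-1 libraries. No measured value was used to choose them.

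RWPE-1 is a human prostate epithelial line immortalized with HPV18. Every line compared here, bone, lymph node and spine alike, overexpressed C-Raf and carried firefly and Gaussia luciferase reporters, and so did the 4 C-Raf parental libraries that served as the common starting point (parental1 to parental4). A single RWPE-1 vector control library had no added C-Raf. The metastasis-derived lines had been grown from macroscopic tumors of immune-deficient NSG mice given C-Raf cells by intracardiac injection, and the lines were established in culture within about a week. The labels give a serum-free medium for keratinocytes for RWPE cells in general. Each line is 1 library, no source states which lines came from the same mouse, and LN1A and LN1B share a number in their titles, so p values here measure only the spread between these lines. Site and deposited table overlap: LN1A, LN1B and Spine stand in the RWPE-CRAF-B1 table together with parental1 and the vector control, whereas Spine2, the 3 bone lines and parental2, parental3 and parental4 stand in the RWPE-CRAF table. Whether a difference between bone and the B1 lines belongs to the site or to the table can therefore be read only against Spine2 and against the parental columns of both tables, and the genes below are read against these.

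Basal cells of the prostate line the outside of the gland. They express the keratins KRT5 and KRT14 and the transcription factor p63, encoded by TP63, and they are anchored to the basement membrane by hemidesmosomes, whereas luminal cells express KRT8 and KRT18 and make the secretions of the gland. RWPE-1 cells are known to keep basal features in culture. C-Raf is the kinase that passes signals from Ras to MEK and ERK, and epithelial cells that lose basal and adhesion genes while gaining vimentin and fibronectin are described as shifting toward a mesenchymal state.

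The lines were epithelial by their markers. The 14 basal genes listed were detected in each of the 7 lines, and their summed level lay between 10334 and 18731 CPM, the share of counts scaled to a common library size. Of the luminal genes, KLK3, KLK2 and MSMB were at 0 in the 7 lines. Some human markers of other cell types had no counts in any of the 7 lines. These were PTPRC, MS4A1 and CD3E of blood cells, CDH5 of endothelium and SP7 and IBSP of osteoblasts. Others were present, such as RUNX2 at 13.3 to 17.8 CPM and COL1A1 at 10.8 to 30.3 CPM. The tumors grew in mice, and mouse reads could reach these symbols only where they align to human genes. The counts therefore cannot tell whether host cells were present. The 12 blood cell markers summed to between 78.9 and 162 CPM, nearly all of it CD68 (78.5 to 160 CPM), a lysosomal gene that epithelial cells also express. The 12 fibroblast markers summed to 22.5 to 31 CPM in the lines other than Bone5, where they summed to 78.1 CPM, and their part in the results was not tested. In bulk RNA, fewer cells of a type and less RNA per cell cannot be told apart. Total counts of the 12 RWPE-1 libraries ran from 33615679 to 43037870. The root mean square difference in log2 CPM over 11996 genes was 0.312 to 0.318 between LN1A, LN1B and Spine and 0.341 between Bone5 and Bone6. Bone4 and Spine2 stood apart from the rest. Bone4 was at a distance of 0.596 to 0.672 from the other lines and was the highest or the lowest of the 7 lines in 3776 and 3942 of 13144 genes, and Spine2 was at a distance of 0.504 to 0.657.

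With site as the only term, no gene passed the test. By the quasi-likelihood test of edgeR, 0 of 13144 protein-coding genes (0%) were called at an adjusted p of 0.05, and the smallest adjusted p was 0.221. Before adjustment, 1171 genes (8.91%) passed 0.05, of which 523 (3.98%) were higher in bone and 648 (4.93%) lower. DESeq2 called 242 genes (1.84%), 106 higher and 136 lower. The groups did not overlap in 609 genes higher in bone (4.63% of those tested) and in 782 genes lower in bone (5.95%). To separate site from table, a gene had to lie at least 1 log2 unit from Spine2 in each bone line in the same direction, and the difference between parental libraries of the tables had to be of the other sign or smaller than 50% of the difference between bone and the other lines. Of all genes, 1.65% met both conditions, against 11.2% (27) of the 242 DESeq2 calls. Spine2 is itself among the lines of that contrast, so called genes meet the condition on Spine2 more often by construction. These shares therefore cannot separate site from table. Of the genes at an unadjusted p below 0.05, 64 met them and 1107 did not. Requiring in addition that the groups do not overlap left 27 genes higher in bone and 30 genes lower. The 12 with the smallest p in each direction are described below as values, since none had an adjusted p below 0.05. Without Bone4 and Spine2, a setting chosen after the distances between libraries were seen, the same test called 565 genes (4.29%), 255 higher in bone (1.94%) and 310 lower (2.35%). That setting leaves Bone5 and Bone6 of the RWPE-CRAF table against LN1A, LN1B and Spine of the B1 table, so that site and table cannot be told apart in it. All 13 mitochondrial protein genes were among those called lower there, with adjusted p values from 0.00349 to 0.0220.

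Genes of basal prostate epithelium stood higher in the bone lines. KRT5, KRT14 and KRT17 were 2.33 to 3.56 times as high in bone as in lymph node and spine, each bone line lay above each of the other 4 lines, and the difference was as large or larger against Spine2 alone. The 3 keratins are among the 27 genes that met every condition. A distance from Spine2 is among these conditions, so their separation from Spine2 follows in part from that choice. TP63 and COL17A1 also separated the groups by smaller amounts. The adjusted p of all 5 lay between 0.221 and 0.29.

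KRT5 forms the basal keratin filament together with KRT14. Its level was 3072 CPM in Bone4, 3488 in Bone5 and 3317 in Bone6, against 1051 in LN1A, 1242 in LN1B, 708 in Spine and 715 in Spine2. The bone mean was 3292 ± 209 CPM (SD, n = 3) and the mean of the other lines 929 ± 263 CPM (SD, n = 4), with no overlap. The log2 difference was 1.83 ± 0.21 (SE, edgeR, adjusted p = 0.221), and it was 2.20 ± 0.51 against Spine2 within the RWPE-CRAF table and 2.56 ± 0.40 with a table term. The parental libraries themselves ranged widely, with 4359 CPM in parental1, 2444 in parental2, 1118 in parental3 and 1138 in parental4. Bone lines lay between parental1 and the other parental libraries, LN1B lay inside the parental range, and LN1A, Spine and Spine2 lay below the lowest parental library.

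KRT14 was measured at 2787 CPM in Bone4, 3422 in Bone5 and 3113 in Bone6. In the other lines it was 1483 CPM in LN1A, 1758 in LN1B, 1136 in Spine and 987 in Spine2. Bone and the other lines differed on the log2 scale by 1.22 ± 0.20 (adjusted p = 0.241), and 1.65 ± 0.32 against Spine2. The bone lines again formed a narrow group above all 4 others, inside the parental range of 1692 to 3886 CPM.

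KRT17, a keratin of basal cells and of stressed or wounded epithelium, was 3000 CPM in Bone4, 1843 in Bone5 and 1672 in Bone6. It was 675 CPM in LN1A, 983 in LN1B, 620 in Spine and 585 in Spine2, and 1091 to 1310 CPM in the parental libraries. Here the bone lines lay above all 4 parental libraries and the lymph node and spine lines below them. The log2 difference was 1.61 ± 0.25 (adjusted p = 0.241). Bone4 had the highest level of the bone lines. Since KRT14, KRT16 and KRT17 share long stretches of near-identical sequence with each other and with pseudogenes, the split of reads between them is uncertain.

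TP63 encodes the transcription factor that maintains basal cells. It was 260 CPM in Bone4, 278 in Bone5 and 291 in Bone6, against 170 in LN1A, 153 in LN1B, 166 in Spine and 185 in Spine2. The spread within each group was small, and the log2 difference was 0.72 ± 0.08 (adjusted p = 0.221). Its distance from Spine2 was 0.57 ± 0.17, too small for the 1 log2 unit asked above. The parental libraries had 212 to 320 CPM, so that the bone lines resembled the parental level and the others lay below it. COL17A1, a collagen of the hemidesmosome, was 2028 to 2284 CPM in bone and 1441 to 1785 CPM in the other lines. Bone was 1.35 times as high as lymph node and spine, but 1.2 times against Spine2 alone and 1.13 times with a table term. Against the parental libraries it was 0.984 times as high. The parental libraries differed by table in the same direction, with 1699 CPM in parental1 and 2295 to 2368 CPM in the other parental libraries. The part of the table in the COL17A1 difference was not tested.

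Of the 14 basal genes, 6 were higher in bone at an unadjusted p below 0.05 (KRT5, KRT14, KRT17, TP63, COL17A1 and DKK3) and 0 were lower, where 3.98% and 4.93% of all genes tested were higher and lower at that threshold. The median log2 difference of the list was 0.28, against -0.001 over all genes tested. Against Spine2 alone, 4 of the 14 were higher (KRT5, KRT14, KRT17 and TP63) and 0 lower, where 3.65% and 4.09% of all genes were. With a table term over the 11 C-Raf libraries, 4 of the 14 were higher and 1 lower, where 5.41% and 7.15% of all genes were. ITGA6 and LAMB3, an integrin and a laminin chain of basal attachment, overlapped between the groups. ITGA6 was 1406 to 3208 CPM in bone and 1946 to 2618 CPM in the others, and LAMB3 was 230 to 517 CPM in bone and 174 to 703 CPM in the others. Without Bone4 and Spine2, where site and table cannot be told apart, 7 of the 14 were called, all 7 higher in bone, where 1.94% of all genes were. At an unadjusted p below 0.05, 9 of the 14 were higher and 2 lower in that setting, where 12.8% and 13.2% of all genes were.

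**Figure D1:**
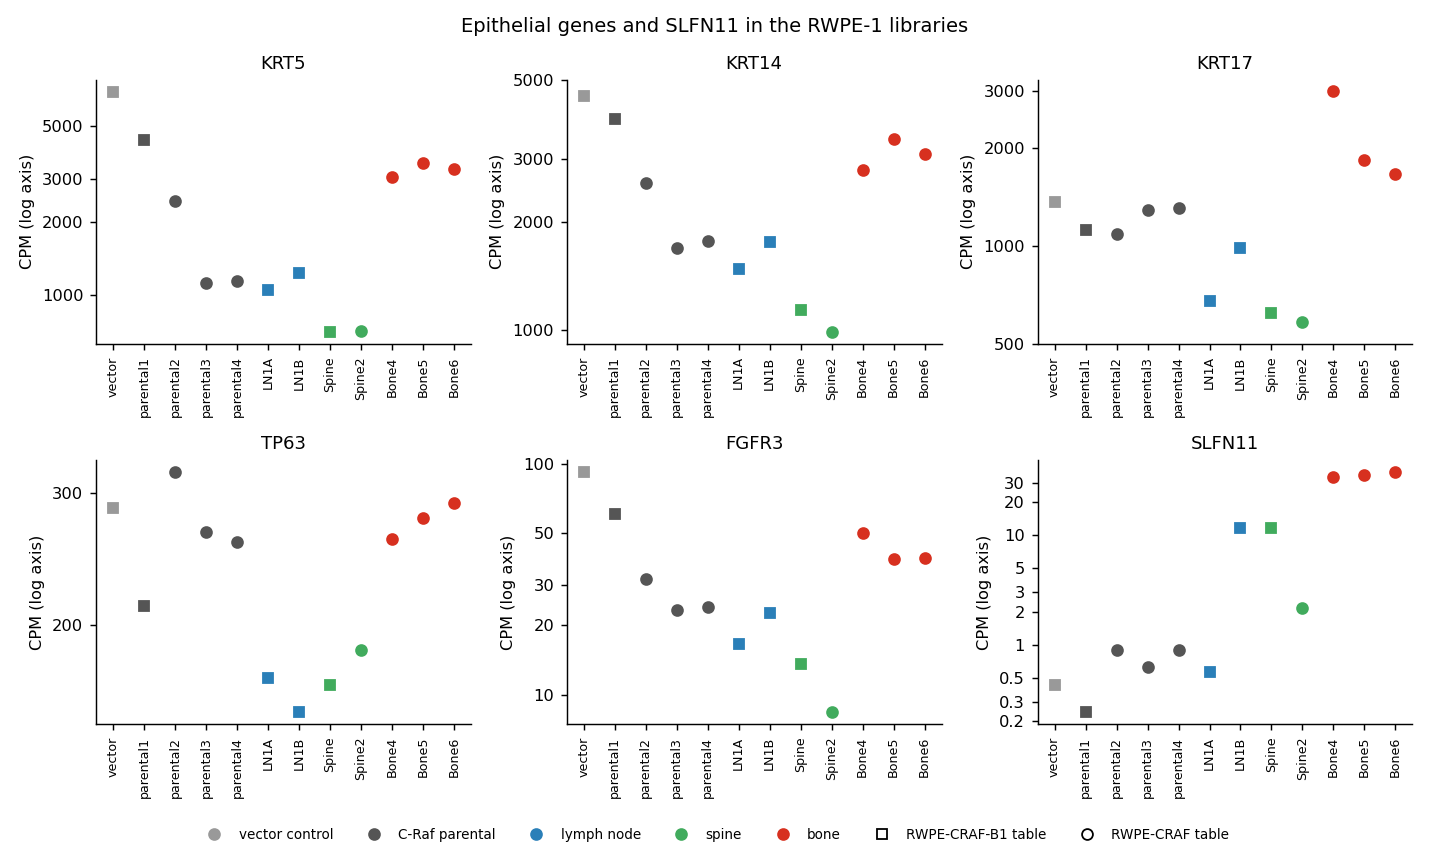
CPM on a log axis in each of the 12 RWPE-1 libraries for KRT5, KRT14, KRT17, TP63, FGFR3 and SLFN11, with colour for the group and shape for the table; each point is 1 library. The 3 bone lines lie above LN1A, LN1B, Spine and Spine2 in all 6 panels, for KRT5 at 3072 to 3488 CPM against 708 to 1242 CPM.

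KRT5 lies on chr12:52514575-52520687 and FGFR3 on chr4:1793293-1808872 (GRCh38). The 250 bases before their RefSeq starts (GRCh38.p14) are shown because these are the keratin with the smallest p and the gene called with a table term, together with those of SGPP2 and SERPINB13, which hold the letters of an AP-1 element. AP-1 is a dimer of Fos and Jun proteins and a classical endpoint of ERK signalling. The sequences run 5′ to 3′ and capitals mark the AP-1 letters TGANTCA on either strand. The windows are chr12:52520395-52520644, minus strand, chr4:1793043-1793292, plus strand, chr2:222423738-222423987, plus strand and chr18:63587093-63587342, plus strand.
KRT5: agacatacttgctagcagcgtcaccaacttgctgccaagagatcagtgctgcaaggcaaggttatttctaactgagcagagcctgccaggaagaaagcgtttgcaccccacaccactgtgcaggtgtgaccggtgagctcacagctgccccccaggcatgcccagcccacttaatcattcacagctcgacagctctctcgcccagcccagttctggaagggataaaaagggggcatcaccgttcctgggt
FGFR3: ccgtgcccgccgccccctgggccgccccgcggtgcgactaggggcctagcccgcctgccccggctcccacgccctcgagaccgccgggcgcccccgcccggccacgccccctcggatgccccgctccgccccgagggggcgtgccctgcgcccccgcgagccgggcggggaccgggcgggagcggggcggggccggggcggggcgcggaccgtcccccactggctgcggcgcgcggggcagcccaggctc
SGPP2: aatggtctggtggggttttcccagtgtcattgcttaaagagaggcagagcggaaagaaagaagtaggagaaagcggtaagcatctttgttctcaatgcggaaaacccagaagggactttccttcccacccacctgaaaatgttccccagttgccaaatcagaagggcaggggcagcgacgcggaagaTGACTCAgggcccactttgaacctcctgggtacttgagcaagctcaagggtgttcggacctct
SERPINB13: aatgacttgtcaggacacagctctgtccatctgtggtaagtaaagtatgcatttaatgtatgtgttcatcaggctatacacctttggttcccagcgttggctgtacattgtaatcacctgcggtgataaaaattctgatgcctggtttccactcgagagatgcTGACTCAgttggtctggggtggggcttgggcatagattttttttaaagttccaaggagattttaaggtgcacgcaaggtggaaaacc

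Of the 12 named genes higher in bone, 10 matched a RefSeq promoter, and SGPP2 and SERPINB13 among them (2 genes) held TGANTCA in the 300 bases around a start, which 7.71% of all 35116 promoters do. Of the 12 named genes lower in bone, 9 matched a promoter and 0 held these letters. The ETS letters CCGGAAGT were in 0 of the 10 and in 1 of the 9 (NMNAT2), against 4.14% of all promoters. The interferon element, GAAA, then NN, then GAAA, was in 0 of the 19, against 3.57% of all. A match describes letters and not a bound site.

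Squamous and cornified genes were at low levels, and TGM1 stood higher in bone. TGM1, the transglutaminase that cross-links the cornified envelope, was 18.1 CPM in Bone4, 16.0 in Bone5 and 19.2 in Bone6, against 4.6 in LN1A, 12.8 in LN1B, 5.69 in Spine and 2.87 in Spine2. The groups did not overlap, LN1B being nearest to bone. On the log2 scale the difference was 1.46 ± 0.44 over the 7 lines (adjusted p = 0.418). Against Spine2 it was 2.62 ± 0.22 and passed the test (adjusted p = 0.0299). Of the 26 genes listed, 10 were tested in the 7 lines, with 2 higher at an unadjusted p below 0.05 (TGM1 and S100A8) and 0 lower. Over the 7 lines, 3.98% of all genes were higher and 4.93% lower at that threshold. Against Spine2, 12 were tested, with 10 above 0 and 2 below, and the median log2 difference was 2.37. Spine2 is 1 library and these genes were at low levels, so these differences rest on few reads. S100A8 reached only 0.203 to 1.46 CPM in bone and 0.0306 to 0.269 CPM elsewhere, and the groups overlapped. SERPINB13, a squamous protease inhibitor, was 4.73, 2.06 and 1.98 CPM in Bone4, Bone5 and Bone6 and 0.673 to 1.01 CPM in the other lines (log2 difference 1.79 ± 0.37, adjusted p = 0.247).

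Of the desmosome genes listed, DSG3 and PKP1 stood higher in bone. DSG3, a desmosomal cadherin, was 41.9 CPM in Bone4, 33.6 in Bone5 and 40.7 in Bone6, against 24.8 in LN1A, 18.6 in LN1B, 19.8 in Spine and 21.4 in Spine2. The groups were clearly separated and the bone lines sat on the parental level of 33.2 to 40.6 CPM. The log2 difference was 0.88 ± 0.12 (adjusted p = 0.241) and 0.85 ± 0.17 against Spine2. PKP1, a plakophilin of the desmosome, was 642 to 854 CPM in bone and 350 to 494 CPM in the other lines. Of 18 adhesion genes, 2 were higher (DSG3 and PKP1) and 2 lower (TJP1 and CLDN4) at an unadjusted p below 0.05. The shares of all genes were 3.98% and 4.93%. The desmosome genes DSP, DSC2, PKP3 and JUP of the same list did not reach that threshold. The median log2 difference of the list was 0.1 over the 7 lines, 0 against Spine2 and 0.03 with a table term. E-cadherin (CDH1) was 124 to 184 CPM in bone and 89.9 to 172 CPM in the others, and the groups overlapped.

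Across all 18 keratins tested of 22 listed, 7 were higher in bone and 5 lower at an unadjusted p below 0.05. Of all genes, 3.98% were higher and 4.93% lower. Besides KRT5, KRT14 and KRT17, the higher keratins were KRT6A, KRT10, KRT16 and KRT75. The lower keratins were KRT7, KRT8, KRT13, KRT18 and KRT23. KRT13 was 13.1-fold lower in bone over the 7 lines but 3.25-fold higher against Spine2 and 2.56-fold higher with a table term. KRT16 was 33.5 to 61.1 CPM in bone and 14.3 to 27.4 CPM elsewhere. Of the 14 luminal genes listed, 8 were tested, and 0 were higher and 2 lower in bone at that threshold (KRT8 and KRT18, keratins of simple epithelium), where 3.98% and 4.93% of all genes were. Against Spine2 alone 0 of the 8 were higher and 0 lower. Without Bone4 and Spine2, where site and table cannot be told apart, 2 were higher and 1 lower at that threshold. Of all genes, 12.8% were higher and 13.2% lower in that setting. After adjustment 1 of the 8 was called higher, where 1.94% of all genes were. KRT8 was 142 CPM in Bone4, 241 in Bone5 and 196 in Bone6, against 256 to 322 CPM in the other 4 lines, with a log2 difference of -0.54 ± 0.17 (adjusted p = 0.432). KRT18 was 287 to 509 CPM in bone and 516 to 721 CPM in the others. The groups did not overlap in either gene, with a narrow gap between Bone6 and LN1B in KRT18. FOLH1, a membrane antigen of luminal cells, was 1.51 to 3.14 CPM in bone and 1.19 to 2.08 CPM in the others, with overlap. KRT19 was scattered, at 290 CPM in LN1A, 49.9 in Bone6 and 0 in Spine2.

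Receptors and signalling enzymes were among the named genes, and FGFR3 was the gene called with a table term. FGFR3 is a fibroblast growth factor receptor of epithelial cells. It was 50 CPM in Bone4, 38.8 in Bone5 and 39.1 in Bone6, against 16.6 in LN1A, 22.6 in LN1B, 13.5 in Spine and 8.40 in Spine2. Bone lines lay well above the other 4. Bone and the other lines differed on the log2 scale by 1.48 ± 0.29 over the 7 lines (adjusted p = 0.241) and 2.34 ± 0.27 against Spine2 (adjusted p = 0.0556). In the fit of 11 C-Raf libraries with a table term it was 2.40 ± 0.24 (adjusted p = 0.0174), and FGFR3 was the 1 gene of 13315 called in that fit (0.00751%). That call was lost when LN1A, Spine2, Bone5 or Bone6 was left out, where the fit called 0 genes. The parental libraries had 60.9 CPM in parental1 and 23.2 to 31.6 CPM in the other 3.

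BDKRB2, the bradykinin B2 receptor, was 22.3, 23.4 and 24.2 CPM in Bone4, Bone5 and Bone6. The other lines had 11.5 CPM in LN1A, 13.3 in LN1B, 12.4 in Spine and 8.34 in Spine2, and the parental libraries 17.4 to 24.6 CPM. The bone lines were tightly grouped at the parental level. The log2 difference was 1.04 ± 0.15 (adjusted p = 0.241), and against Spine2 it was 1.48 ± 0.15 and passed the test (adjusted p = 0.0404).

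PRKAA2, a catalytic subunit of the energy sensor AMPK, had the largest log2 difference of the 12 genes higher in bone. It was 9.20 CPM in Bone4, 3.62 in Bone5 and 1.73 in Bone6, and 0.470 in LN1A, 0.566 in LN1B, 0.708 in Spine and 0.183 in Spine2. All 7 lines lay below the parental libraries, which had 15.6 to 18.7 CPM. The log2 difference between bone and the others was 3.32 ± 0.63 (adjusted p = 0.241). Against the parental libraries, the lymph node and spine lines fell by 5.12 ± 0.53 on the log2 scale (adjusted p = 0.00701), whereas the value of the bone lines was -1.81 ± 0.48 (adjusted p = 0.288).

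The other named genes higher in bone were at low or moderate levels. SGPP2, which removes phosphate from sphingosine 1-phosphate, was 4.33 to 6.81 CPM in bone and 1.13 to 2.29 CPM in the others. SLC38A5, an amino acid transporter, was 1.28 to 4.33 CPM in bone and 0.0306 to 0.593 CPM in the others, and SHE, an adaptor protein, 0.914 to 1.14 CPM and 0.0976 to 0.431 CPM. IGSF9 was 2.64 to 4.25 CPM in bone and 1.01 to 1.71 CPM in the others. PPP1R14C, an inhibitor of protein phosphatase 1, was 31.2, 24.3 and 30.0 CPM in Bone4, Bone5 and Bone6 and 15.7, 16.4, 14.4 and 5.93 CPM in LN1A, LN1B, Spine and Spine2. Its value against Spine2, 2.26 ± 0.21, passed the test (adjusted p = 0.0299), and it lies on the distal part of chromosome 6, where Spine2 was low at most genes.

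**Figure D2:**
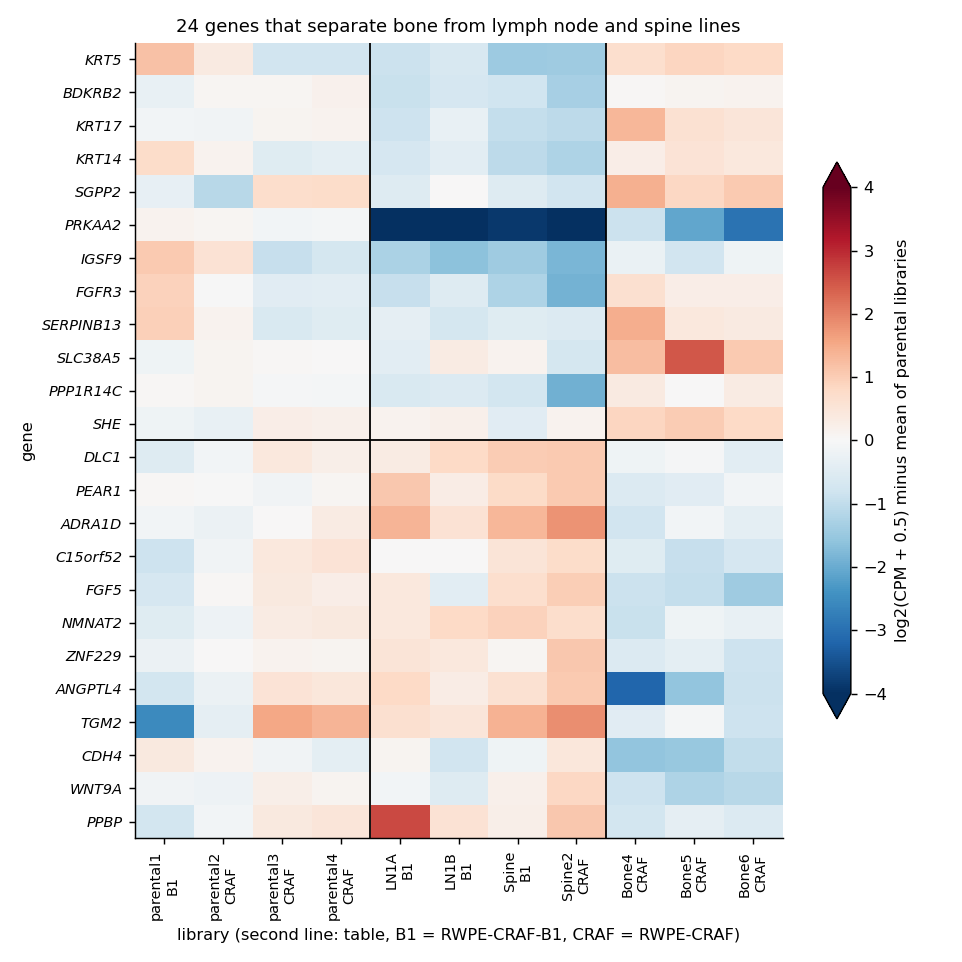
Heat map of the 24 named genes (rows) in the 11 C-Raf libraries (columns), as log2(CPM + 0.5) minus the mean of the 4 parental libraries; red is above and blue below that mean, colours stop at 4 log2 units, and vertical lines divide parental, lymph node and spine, and bone libraries. The upper 12 genes were chosen as higher in bone and the lower 12 as lower, and PRKAA2 is below the parental mean in all 7 lines.

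The genes lower in bone included regulators of the cytoskeleton, secreted factors and matrix enzymes. Spine2 held the highest level of the 7 lines in each named gene lower in bone except NMNAT2, PEAR1 and PPBP. That order follows in part from choosing genes at a distance from Spine2. DLC1, a GTPase-activating protein that acts on the cytoskeleton, was 17.7 CPM in Bone4, 19.0 in Bone5 and 14.7 in Bone6, against 25.1 in LN1A, 34.5 in LN1B, 40.8 in Spine and 41.9 in Spine2. The groups did not overlap. On the log2 scale the difference was -1.05 ± 0.19 (adjusted p = 0.241), and -1.30 ± 0.22 against Spine2.

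FGF5, a secreted fibroblast growth factor, was 4.94, 4.62 and 3.24 CPM in Bone4, Bone5 and Bone6, and 12.7, 6.90, 15.3 and 19.1 CPM in LN1A, LN1B, Spine and Spine2. The parental libraries had 5.71 to 12.5 CPM, so each bone line was below each parental library. The log2 difference was -1.66 ± 0.35 (adjusted p = 0.248) and against Spine2 -2.17 ± 0.26 (adjusted p = 0.0556). Spine2 had the highest level and Bone6 the lowest.

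ANGPTL4, a secreted inhibitor of lipoprotein lipase, was 0.969 CPM in Bone4, 3.88 in Bone5 and 6.72 in Bone6, against 22.3 in LN1A, 15.8 in LN1B, 19.5 in Spine and 26.9 in Spine2. The bone lines were below the parental range of 7.35 to 18.6 CPM and differed among themselves. Bone and the other lines differed on the log2 scale by -2.46 ± 0.56 (adjusted p = 0.28). TGM2, tissue transglutaminase, was 7.98 to 13.6 CPM in bone and 20.4 to 54.0 CPM in the others, while the parental libraries spread from 2.06 to 43.3 CPM. WNT9A, a Wnt ligand, was 6.04, 4.41 and 4.89 CPM in the bone lines and 7.73 to 20.3 CPM in the others, with a log2 difference of -1.33 ± 0.33 (adjusted p = 0.322).

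Further genes of this group were receptors and adhesion molecules. ADRA1D, an alpha-1 adrenergic receptor, was 0.113 to 0.449 CPM in bone and 1.05 to 3.06 CPM in the others. PEAR1, a receptor with epidermal growth factor repeats, was 3.92 to 5.46 CPM against 7.51 to 13.3 CPM, and CDH4, R-cadherin, 1.35 to 2.25 CPM against 2.75 to 6.97 CPM. PPBP, a CXC chemokine precursor, was at most 0.158 CPM in bone and 0.488 to 4.70 CPM in the others, with LN1A far above the rest. NMNAT2, which makes NAD, was 0.767 to 1.58 CPM against 2.67 to 3.95 CPM. ZNF229, a zinc finger gene, was 3.66 to 5.04 CPM against 7.27 to 15.0 CPM, and C15orf52 was 11 to 15.0 CPM against 21.5 to 35.7 CPM.

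Vimentin and fibronectin, the classical mesenchymal pair, stood lower in bone. VIM was 1309 CPM in Bone4, 1568 in Bone5 and 1171 in Bone6, against 1691 in LN1A, 1850 in LN1B, 1659 in Spine and 2199 in Spine2, and 900 to 1206 CPM in the parental libraries. The lymph node and spine lines were above all parental libraries. The log2 difference between bone and the others was -0.45 ± 0.15 (adjusted p = 0.432). FN1 was 932 to 1764 CPM in bone and 2039 to 3264 CPM in the others, with parental libraries from 439 to 4041 CPM. S100A4 went the other way, at 2.37 to 6.99 CPM in bone and 0.879 to 2.24 CPM in the others. Of 17 genes tested of this list, 1 was higher and 2 were lower at an unadjusted p below 0.05. The shares of all genes were 3.98% and 4.93%. The transcription factors that drive the mesenchymal state did not separate the sites: ZEB1 was 9.24 to 20.8 CPM in bone and 10.9 to 24 CPM in the others, and SNAI2 161 to 198 CPM and 126 to 192 CPM.

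Few genes that report ERK activity differed. At an unadjusted p below 0.05, 2 of 20 were lower in bone (PHLDA1 and EPHA2) and 0 higher, where 4.93% and 3.98% of all genes were, and the median log2 difference was -0.19. Against Spine2 alone 6 of the 20 were above 0 and 14 below, with a median of -0.16, and without Bone4 and Spine2 the median was -0.09. PHLDA1, induced by growth factors, was 113 CPM in Bone4, 216 in Bone5 and 164 in Bone6, against 235 to 337 CPM in the other lines (log2 difference -0.78 ± 0.22, adjusted p = 0.383). FOSL1, an AP-1 subunit induced by ERK, was 92.5 CPM in Bone4, 235 in Bone5 and 210 in Bone6 and 244 to 287 CPM in the others. Bone4 had the lowest value of both genes. The feedback phosphatase DUSP6 was 251 to 382 CPM in bone and 355 to 393 CPM in the others. Among 16 immediate early genes, 3 were lower (JUN, KLF6 and IER2) and 1 higher (JUNB), with JUN at 63.0 to 67.4 CPM in bone and 77.5 to 100 CPM in the others.

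Hypoxia and glycolysis genes were 5 lower and 1 higher of 21 at an unadjusted p below 0.05, with a median log2 difference of -0.21. Against Spine2 alone the median was -0.30, with 17 of the 21 below 0 and 4 above. The higher one was VEGFA, the endothelial growth factor, at 300.2 CPM in Bone4, 109 in Bone5 and 131 in Bone6 against 74.9 to 95.7 CPM. The lower ones were ANGPTL4, ADM, BNIP3, PFKP and LDHA, and BNIP3 was 111 to 133 CPM in bone and 133 to 163 CPM in the others. Over the 7 lines, 4.93% of all genes were lower and 3.98% higher at an unadjusted p below 0.05. Bone4 had the highest VEGFA and the lowest ANGPTL4 of the 7 lines.

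Of 21 secreted inflammatory factors tested, 4 were lower in bone at an unadjusted p below 0.05 (IL1B, IL33, CXCL2 and LIF) and 0 higher, where 4.93% and 3.98% of all genes were. Against Spine2 alone 1 of 21 was lower and 0 higher, where 4.09% and 3.65% of all genes were. The parental libraries of the RWPE-CRAF table lay above parental1 by a median of 2.48 log2 units over this list, and the part of the table in these values was not tested. IL1B, a cytokine that promotes bone resorption, was 54.6, 178 and 154 CPM in Bone4, Bone5 and Bone6 and 260, 343, 499 and 185 CPM in LN1A, LN1B, Spine and Spine2. Spine2 was next to the bone lines. Its value against Spine2 was -0.53 ± 0.57, within its error. IL33 was 6.75 to 17.0 CPM in the B1 lines, 1.41 CPM in Spine2 and 0.316 to 1.74 CPM in bone, so that Spine2 lay within the bone range. The parental libraries did not divide by table in the same way, with 0.698 CPM in parental1 and 1.14 to 2.89 CPM in the other 3. PDGFB, a growth factor for stromal cells, did hold against Spine2: it was 0.992 to 1.27 CPM in bone, 1.75 to 2.64 CPM in the B1 lines and 6.72 CPM in Spine2, with a log2 value against Spine2 of -2.55 ± 0.40 (adjusted p = 0.0963). Of 20 integrins and laminins, 2 were lower (ITGB1 and ITGB3) and 0 higher over the 7 lines at that threshold. With a table term, 8 of the 20 were lower and 0 higher, where 7.15% and 5.41% of all genes were. The median log2 difference of this list was -0.07 over the 7 lines, -0.18 against Spine2 and -0.32 with a table term. ITGB3, the beta-3 integrin, was 0.225 to 0.790 CPM in bone and 1.53 to 3.08 CPM in the others.

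Genes known for acting on bone were few among those that differed. Of 12 osteoclast-directed and osteolytic genes tested, 0 were higher and 3 lower at an unadjusted p below 0.05 (IL1B, CSF1 and CTGF), and against Spine2 0 of 13 were higher and 0 lower. Of 9 bone-forming genes, 1 was higher (GREM1, 2.96 to 4.25 CPM in bone, 3.05 CPM in Spine2) and 0 lower. Over the 7 lines, 3.98% of all genes were higher and 4.93% lower at that threshold. RUNX2, the osteoblast transcription factor, lay between 13.3 and 17.8 CPM in the 7 lines. Of 5 lymph node homing and lymphangiogenic genes tested, 1 was higher in bone (PDPN) and 1 lower (PDGFB). Of 24 cholesterol and fatty acid genes and 20 cell cycle genes, 0 reached an unadjusted p below 0.05 in either direction, and the medians were 0.01 and -0.1.

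Among 21 Wnt pathway genes, 3 were higher in bone (WNT10A, FZD1 and DKK3) and 1 was lower (WNT9A) at an unadjusted p below 0.05. The shares of all genes were 3.98% and 4.93%. Against Spine2 alone 13 of 23 were above 0 and 10 below, with a median log2 difference of 0.25. In that comparison WNT9A had an adjusted p of 0.0556 in edgeR, with 20.3 CPM in Spine2. The log2 difference from Spine2 was 0.36 ± 0.20 for FZD1 and 0.27 ± 0.27 for DKK3. Of 16 collagens, 3 were higher (COL16A1, COL17A1 and COL18A1) and 0 lower, and COL16A1 was 75.4 to 80.9 CPM in bone, 70.7 CPM in Spine2 and 25.5 to 38.9 CPM in the B1 lines.

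**Figure D3:**
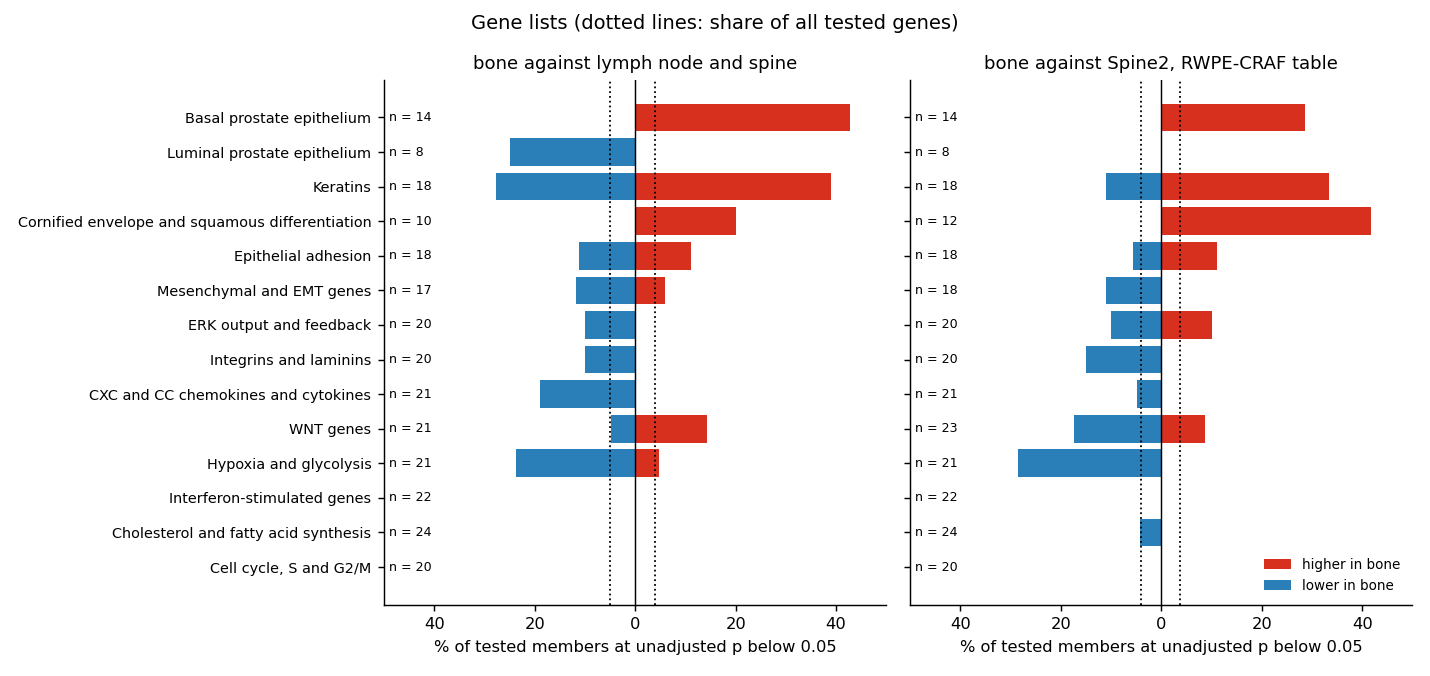
Share of the tested members of 14 gene lists at an unadjusted p below 0.05, higher in bone to the right and lower to the left, over the 7 lines (left panel) and against Spine2 alone (right panel); n is the number tested and dotted lines are the shares over all genes. Basal genes reach 6 of 14 higher and 0 lower in the left panel and 4 of 14 and 0 in the right.

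Against Spine2 alone, within the RWPE-CRAF table, 10 of 13716 genes were called (0.0729%), 8 higher in bone (0.0583%) and 2 lower (0.0146%), and 1062 genes (7.74%) had an unadjusted p below 0.05. These contrast 3 bone lines with 1 line, whose own spread is taken from the other groups. SLFN11, a gene known for sensitivity to DNA damage, had the smallest p. It was 34.1 CPM in Bone4, 35.3 in Bone5 and 37.9 in Bone6, 2.17 in Spine2, 11.6 in both LN1B and Spine and 0.569 in LN1A. The bone lines were nearly equal and the other lines spread widely. The value against Spine2 was 4.03 ± 0.26 (adjusted p = 0.0145), and over the 7 lines 2.47 ± 0.81 (adjusted p = 0.441). The parental libraries and the vector control had at most 0.898 CPM, and the log2 difference of bone from the parental libraries was 5.73 ± 0.87 (adjusted p = 0.0725).

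The other calls against Spine2 were of 2 kinds. BDKRB2, PPP1R14C and TGM1 also separated bone from the B1 lines. In PNLDC1, ZNF736, CHRNB1 and CCBE1 the value of Spine2 stood far from the other 10 C-Raf libraries, and in DCAF12L2 and PRSS21 bone overlapped with the B1 lines. PNLDC1 was 0.764 CPM in Spine2 and 10.6 to 18.8 CPM in the 10 other C-Raf libraries, and ZNF736 was 0.519 CPM in Spine2 and 6.42 to 9.20 CPM in those libraries. CCBE1 was 62.4 CPM in Spine2, 9.94 to 14.3 CPM in the B1 lines and 5.34 to 9.51 CPM in bone, with no overlap, and CHRNB1 was 26.0 CPM in Spine2 and 5.26 to 7.83 CPM in the other C-Raf libraries. DCAF12L2 was at 0 in Spine2 and 0.220 CPM in Spine. Leaving out Bone4 raised the number of calls to 150, and leaving out Bone5 or Bone6 lowered it to 3.

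Genes of Spine2 were also examined by chromosome position. Of 241 genes on chromosome 6 beyond 80000001, 198 (82.2%) had their lowest level of the 11 C-Raf libraries in Spine2, against 11.6% of all genes, and their median log2 difference from the parental mean was -0.9, with quartiles of -1.04 and -0.74. In the other libraries the median of these genes lay between -0.28 and 0.04. Of the 501 genes higher in bone than in Spine2 at an unadjusted p below 0.05, 181 (36.1%) lay there, although the region holds 2% of the genes tested. In bone against all 4 lines, 12 of the 261 genes of that region tested were higher at that threshold. PPP1R14C (chr6:150143076-150250357) and PNLDC1 (chr6:159800249-159820704) are in the region. Bone4 had a median of -0.3 over 615 genes of the whole of chromosome 6, where it was the lowest of the 11 libraries in 33.3%. Over 43 genes of chromosome 4 from 60000001 to 80125454 its median was -0.41, and it was the lowest in 51.2%. Of all genes, Bone4 was the lowest in 21.8%. PPBP (chr4:73987038-73988197) lies in that stretch of chromosome 4, at 0 in Bone4, 0.158 CPM in Bone5 and 0.0741 CPM in Bone6. FGF5 (chr4:80266599-80336680) lies in the next stretch, from 80000001, where the median of Bone4 was -0.19 over 52 genes. In each stretch of chromosome 4 examined from 40000001 on, the median of Bone4 lay between -0.41 and -0.13. LN1A had a median of 0.33 over 113 genes of chromosome 21. It was the highest of the 11 libraries in 63 of them (55.8%), against 4.31% of all genes. These regions were chosen after their values were seen and carry no test.

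**Figure D4:**
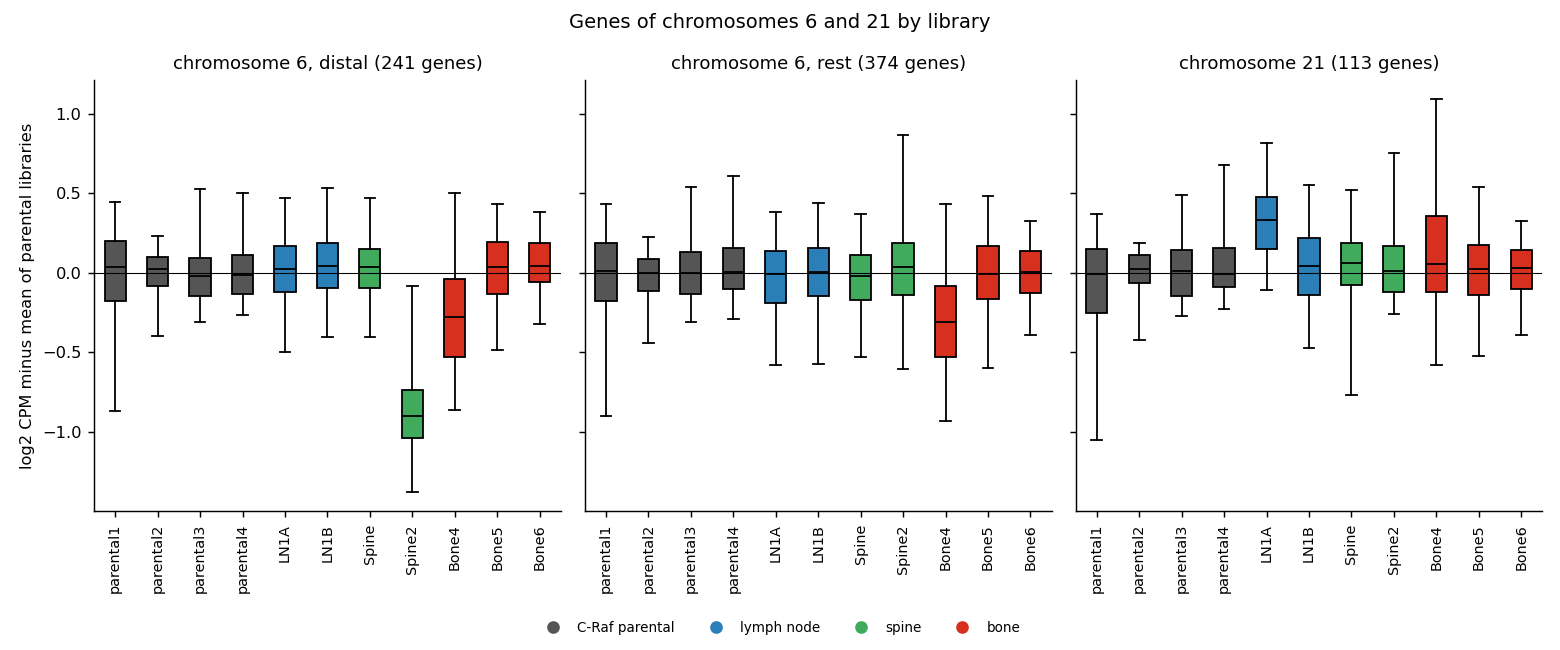
Log2 CPM minus the mean of the parental libraries for the genes of distal chromosome 6 (241 genes, from 80000001 on), the rest of chromosome 6 (374 genes) and chromosome 21 (113 genes) in the 11 C-Raf libraries; boxes are quartiles, lines medians and whiskers the 5th and 95th percentiles over genes. The Spine2 box of distal chromosome 6 lies wholly below 0, at a median of -0.9, and that of LN1A on chromosome 21 lies above 0.

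Some genes that differed between bone and the B1 lines differed in the same way between the parental libraries of the tables. CTGF, a matrix-associated growth factor, was 78.4 CPM in LN1A, 79.5 in LN1B and 85.1 in Spine, and 10.6 CPM in Spine2 and 4.89 to 12.9 CPM in bone. The parental libraries divided the same way, with 88.1 CPM in parental1 and 7.21 to 9.94 CPM in parental2, parental3 and parental4. Its log2 difference over the 7 lines was -2.81 ± 0.70 (adjusted p = 0.322), while against Spine2 it was -0.24 ± 0.48 and with the table term -0.05 ± 0.33. CTGF lies on distal chromosome 6 (chr6:131948176-131951373), where Spine2 was low at most genes, so its level in Spine2 was read in that region. HES1, a Notch target, had 77.0 to 83.1 CPM in the B1 lines, 14.1 in Spine2 and 12.3 to 36.7 CPM in bone, and 70.6 CPM in parental1 against 12.8 to 21.8 CPM in the other parental libraries. The 13 protein-coding mitochondrial genes summed to 19228 to 24467 CPM in LN1A, LN1B and Spine, 4906 in Spine2, 6681 in Bone5 and 5360 in Bone6, but to 16617 in Bone4 and 19858 in parental4, both of the RWPE-CRAF table. Their sum therefore followed neither site nor table alone.

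Interferon-stimulated genes differed in sign between comparisons. Over the 7 lines 21 of 22 were above 0 (median log2 difference 0.28) and 0 passed an unadjusted p of 0.05, whereas against Spine2 all 22 were below 0 (median -0.76). Without Bone4 and Spine2, where site and table cannot be told apart, 22 of 22 were above 0 (median 0.67). In that setting 14 had an unadjusted p below 0.05, where 12.8% of all genes were higher at that threshold. After adjustment 2 were called higher, where 1.94% of all genes were. Their summed level was 2651 CPM in Bone4, 1748 in Bone5 and 1363 in Bone6, 3266 in Spine2, and 1016, 1323 and 893 in LN1A, LN1B and Spine. The parental libraries held 456 and 739 CPM in parental1 and parental2 and 7318 and 7284 CPM in parental3 and parental4. The parental libraries thus spread more widely than the lines of either site.

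**Figure D5:**
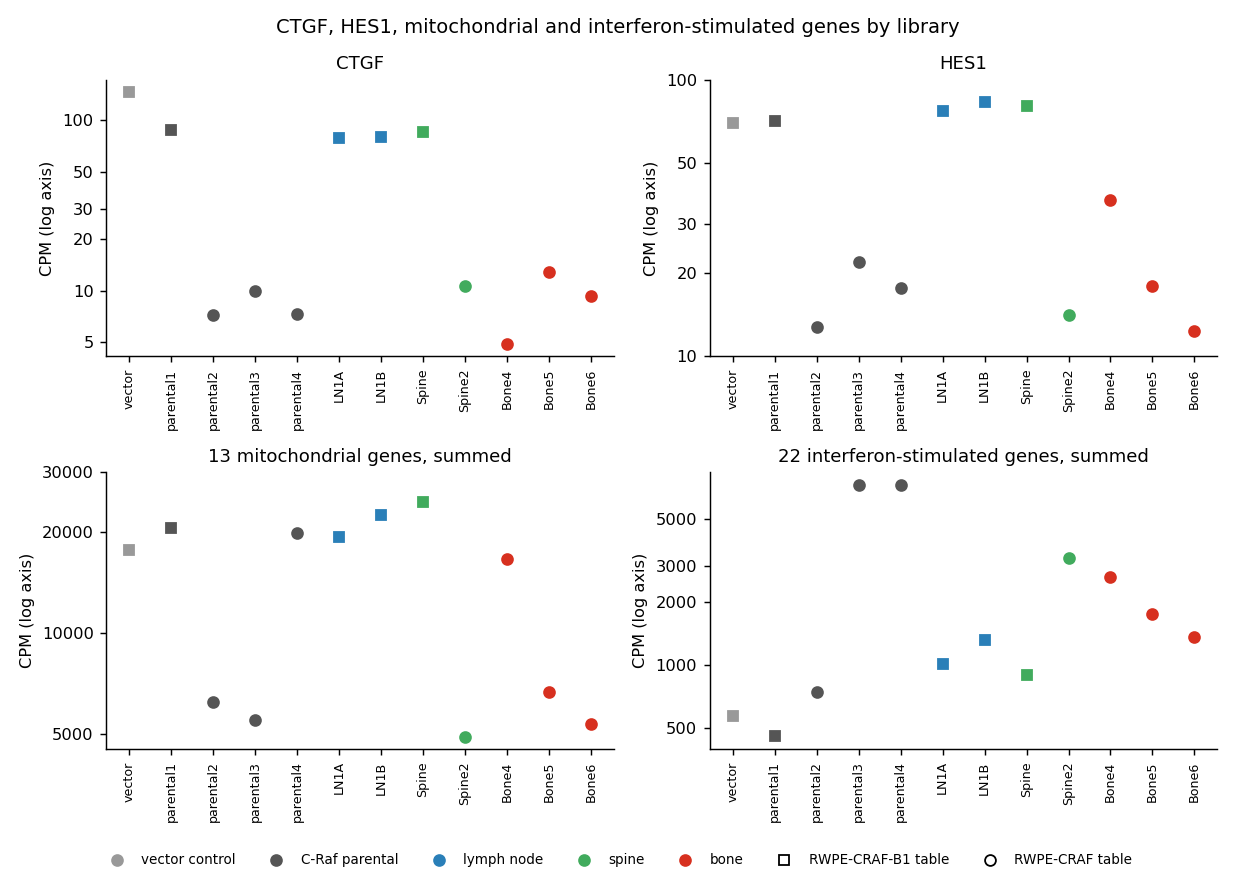
CPM on a log axis in the 12 RWPE-1 libraries for CTGF, HES1, the sum of 13 mitochondrial genes and the sum of 22 interferon-stimulated genes, with colour for the group and squares for the RWPE-CRAF-B1 table. CTGF is 78.4 CPM or more in every library of that table and 12.9 CPM or less in every library of the other, and interferon-stimulated genes divide the parental libraries.

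Bone lines and lymph node and spine lines were each set against the C-Raf parental libraries, which both comparisons share. The named genes were chosen on the same values of these lines, so their place against the parental libraries is a description with no test. Of the 12 named genes higher in bone, 6 had all 4 lymph node and spine lines below every parental library and 4 had all 3 bone lines above. Of the 12 lower in bone, 5 had all bone lines below every parental library and 3 had all lymph node and spine lines above. Over all genes these shares were 3.7% and 3.75% and then 4.11% and 3.2%, and the choice of genes alone raises the counts above them. Of the 14 basal genes, 1 was higher and 0 lower in bone lines than in parental libraries at an unadjusted p below 0.05, where 3.94% and 4.21% of all genes were. In lymph node and spine lines 0 of the 14 were higher and 5 lower, where 4.10% and 5.08% of all genes were. After adjustment, 13 of 13315 genes (0.0976%) differed in lymph node and spine lines, 7 higher (0.0526%) and 6 lower (0.0451%). COL9A3, CRACR2A, EDNRA, GAS2L1, MAB21L1, NAGS and RFX8 rose and DSG3, FXYD3, PRKAA2, ROBO2, SLIT2 and SLITRK4 fell. Unadjusted p values below 0.05 were found for 9.18% of genes in that comparison and for 8.15% in bone lines. In bone lines 1 gene (0.00751%) differed after adjustment, CRACR2A, a calcium sensor, which was 5.52 to 7.10 CPM in the parental libraries, 20.9 to 21.6 CPM in bone and 15.3 to 23.7 CPM in the other lines. CRACR2A rose 3.25-fold in bone (adjusted p = 0.00259) and 3.01-fold in lymph node and spine lines (adjusted p = 0.00301). FXYD3, a regulator of the sodium pump, was 12 to 17.6 CPM in lymph node and spine lines, 26.8 to 61.1 CPM in bone and 42.9 to 50.2 CPM in the parental libraries.

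Bone and spine are both skeletal sites. When the 3 bone and 2 spine lines were compared with the 2 lymph node lines, edgeR called 0 of 13354 genes (0%), and DESeq2 called 7. An unadjusted p below 0.05 was found for 394 genes (2.95%), with 1.93% of genes higher in the skeletal lines and 1.02% lower. The keratin differences did not follow that grouping either, as Spine and Spine2 had the lowest KRT5 levels of the 7 lines (708 and 715 CPM) and bone lines the highest.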

How the data were processed

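RNA was sequenced from 24 libraries, of which the 12 of RWPE-1 were used. The authors deposited tables of expected counts per gene symbol, made with RSEM. The submitters' processing notes also name cutadapt, FastQC, STAR and hg38, and versions are not given in the sources used here. Each table lists 60448 symbols, and 0 columns belonged to other samples. Expected counts were rounded to whole numbers, and 19198 symbols that GENCODE 29 (GRCh38) lists as protein-coding (517 through an older symbol) were kept. The tables pair no identifiers with symbols.

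Genes were kept with filterByExpr by group, scaled by TMM and tested with the quasi-likelihood test of edgeR 4.0.16 in R 4.3.3, with Benjamini-Hochberg adjustment over all genes tested. The fits were the 7 lines alone, the RWPE-CRAF table alone, the 11 C-Raf libraries with and without a table term, and bone and spine against lymph node. Standard errors come from the F statistic. CPM were TMM-scaled over the 12 libraries and log2 CPM used a prior count of 2. The table check asks for 1 log2 unit from Spine2 in every bone line and a parental shift below 50% of the difference. Each named gene had the smallest p among genes that do not overlap, pass the check and reach 1 CPM in the higher group, 12 in each direction. Members of lists were named where a sentence is about the list, called members first. SLFN11, CTGF, HES1, the mitochondrial genes, CRACR2A and FXYD3, the genes called in other comparisons and the chromosome regions were named after their values were seen. The members and lists were chosen with earlier results of these data known. The script was tested on simulated data with 200 changed genes. Alternatives were DESeq2 1.42.0, RLE factors, other filters, all symbols, other libraries in the fit, and each library left out. Totals ran from 33615679 to 43037870 counts, so genes below 1 CPM rest on few reads. The level of the overexpressed gene and some other values are not reported here. The BPH-1 tables were not used here.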

Additional observations from a re-analysis of the deposited data

Results flagged for a closer look

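Values of 1 library that stood far from the rest of its group of 4 were found in 3 of 72 values examined, and chance alone marks about 1 in 20. SHE was 0.0976 CPM in Spine and 0.396 to 0.431 CPM in the other lymph node and spine lines. In the parental group, COL17A1 was 1699 CPM in parental1 and 2295 to 2368 CPM in the other 3, and VIM was 900 CPM in parental1 and 1163 to 1206 CPM in the other 3, parental1 being the parental library of the RWPE-CRAF-B1 table.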

How the results depend on the processing

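Between bone and lymph node and spine, the count of 0 genes called by edgeR became 242 with DESeq2, 1 with a table term and 565 without Bone4 and Spine2, an alternative chosen after seeing the data, in which site and table cannot be told apart. With each library left out it stayed between 0 and 0. Calls that passed the table check numbered 0, and 27 with DESeq2 and 1 with a table term, and stayed between 0 and 0 with each library other than Spine2 left out. The table check needs Spine2, so no value could be had for it without Spine2 or without Bone4 and Spine2. Genes at an unadjusted p below 0.05 (1171) became 3424 without Bone4 and Spine2 and 542 for bone against spine alone, and ranged from 660 without Spine to 1811 without Spine2 (where site and table again cannot be told apart), with 757 without LN1A and 1795 without Bone4. The 57 genes that did not overlap, had an unadjusted p below 0.05 and passed the check became 37 at 1 CPM in 3 libraries and 147 at 0.5 log2 units from Spine2, and ranged from 51 to 99 (without Bone5), with 97 without Bone4. Against Spine2, 10 calls became 277 with DESeq2 and 16 with no filter, and ranged from 3 to 150. With the table term, 1 call became 350 with DESeq2 and ranged from 0 to 7. Against parental libraries, the call in bone became 167 with DESeq2 and ranged from 1 to 2, and the 13 in lymph node and spine became 269 and ranged from 1 without LN1B to 37 without parental1. For skeletal lines against lymph node, 0 became 7 with DESeq2. The cause of these shifts was not tested. Of the 24 named genes, whose direction was fixed by their choice, 23 had an adjusted p below 0.05 with DESeq2, 1 with a table term, 12 without Bone4 and Spine2 and 0 under the other settings of edgeR. No paired analysis was possible because the bone lines and the lymph node and spine lines share no replicate number. Genes at low counts are limited by depth.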

Other observations

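The genes here were chosen after their values were seen. Of 15 genes of the unfolded protein and amino acid response, 2 were higher and 2 lower in bone at an unadjusted p below 0.05, and against Spine2 0 were higher and 0 lower. Over the 7 lines, 3.98% of all genes were higher and 4.93% lower at that threshold. In DDIT3 and WNT10A, Bone4 stood apart from the other bone lines. DDIT3, a transcription factor of the unfolded protein response, was 84.1 CPM in Bone4 and 12 and 12.2 CPM in Bone5 and Bone6, against 11 to 12.8 CPM in the lymph node and spine lines. WNT10A, a Wnt ligand, was 6.83 CPM in Bone4 and 1.61 and 1.78 CPM in Bone5 and Bone6, against 0.220 to 1.16 CPM. The zinc exporter SLC30A1 was 89.1 CPM in Bone4, 54.4 in Bone5 and 44.5 in Bone6, against 24 to 42.0 CPM in the others. Thioredoxin reductase TXNRD1, a target of NRF2, was 183 to 204 CPM in bone and 234 to 314 CPM in the others, with a log2 difference of -0.50 ± 0.12 (adjusted p = 0.302). The receptor FZD1 was 13.7 to 18.2 CPM in bone, 7.47 to 12.3 CPM in the other lines and 7.24 to 8.01 CPM in the parental libraries.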
